A study of Mus musculus with 8 samples.

Results

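The CC chemokine genes of the mouse chromosome 11 cluster encode small secreted proteins that attract leukocytes. The genes described here are Ccl2, Ccl7, Ccl11, Ccl12, Ccl8, Ccl5, Ccl9, Ccl6, Ccl3 and Ccl4, which are 10 of the 55421 genes in the deposited table. They were chosen because the neighbours Ccl2 and Ccl7 had moved in opposite directions in an earlier fit of the same libraries, so the values of these neighbours are given as a description without a test. Of the 10 genes, 9 passed the filter on low values, as did 13933 genes of the whole table, and Ccl11 did not.

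RNA was sequenced from 4 Baf60a KO and 4 WT libraries of primary bone marrow derived macrophages (BMDMs), which are macrophages grown from marrow precursors, at day 7 of differentiation. Baf60a is the protein encoded by Smarcd1, a subunit of SWI/SNF chromatin remodelling complexes. The series title names C57 mice. The sources used here do not give how Smarcd1 was deleted, any Cre driver or the age of the mice, and no stimulus other than the differentiation is named for either group.

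As background, chemokines bind G protein-coupled receptors on leukocytes and direct their migration, and the CC family is named for a pair of adjacent cysteines near the amino terminus. In the mouse, Ccl2, Ccl7 and Ccl12 act through Ccr2 and attract monocytes, Ccl3, Ccl5, Ccl6 and Ccl9 act through Ccr1, and Ccl4 attracts monocytes and T cells. Ccl8 acts in the mouse through Ccr8, and Ccl11 attracts eosinophils through Ccr3. Macrophages are a known source of many of these ligands, and stromal cells are a known source of Ccl2, Ccl7 and Ccl11.

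The family resemblance bears on the measurement, because a read from one gene could be given to another where their transcripts are alike. The windows printed here are 51 bases of coding sequence, the length of 1 read, around the codons of the adjacent cysteines, which are in capitals. They show the neighbours that moved in opposite directions, the called gene Ccl8, and Ccl6 and Ccl9, the most alike coding sequences among the 10 genes.
Ccl2: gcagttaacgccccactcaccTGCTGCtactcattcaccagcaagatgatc
Ccl7: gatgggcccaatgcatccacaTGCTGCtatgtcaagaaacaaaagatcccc
Ccl8: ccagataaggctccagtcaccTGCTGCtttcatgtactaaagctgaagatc
Ccl6: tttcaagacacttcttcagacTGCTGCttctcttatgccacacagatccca
Ccl9: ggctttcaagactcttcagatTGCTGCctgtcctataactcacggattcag
All are written 5′ to 3′ on the coding strand of the GENCODE M21 transcripts (mm10). The Ccl2 window lies in exon 2 at chr11:82036485-82036535, and the Ccl6 window in exon 3 at chr11:83589362-83589412. The windows of Ccl7 (chr11:82045859-82046567), Ccl8 (chr11:82115309-82116085) and Ccl9 (chr11:83575902-83576375) each span an intron. The windows of Ccl2 and Ccl7 differed at 28 of 51 bases, and their coding sequences were 65.9% identical, with a longest identical run of 11 bases. Ccl6 and Ccl9 were 72.2% identical, with a longest identical run of 23 bases. No stretch of 31 bases was shared between transcripts of any of the 10 genes. Stretches of that length from Ccl2, Ccl7, Ccl12, Ccl8, Ccl3 and Ccl4 occurred in the transcripts of no other gene, and 3.98% of those of Ccl9, 1.02% of Ccl6, 0.539% of Ccl5 and 0.0951% of Ccl11 did. An antisense gene, Gm17268, overlaps Ccl2 and was listed at 0 in all 8 libraries, and E230016K23Rik, which overlaps Ccl6, was at 0.22 to 0.48 TPM in Baf60a KO and 0.16 to 0.29 TPM in WT.

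Expression is given in TPM, a length-corrected transcript abundance that totals 1000000 in each library, so levels of different genes can be set side by side but the read depth of a library is unknown. Smarcd1 was at 10.79, 10.27, 10.85 and 9.91 TPM in Baf60a KO libraries 1 to 4, against 16.25, 14.29, 14.76 and 14.01 TPM in WT libraries 1 to 4, and it fell (log2 fold change -0.47, limma adjusted p = 0.00756). All 9 macrophage markers examined were present, with Adgre1 at 308 ± 12.8 TPM in Baf60a KO and 273 ± 21.9 TPM in WT (SD, n = 4 each). WT libraries 3 and 4 stood apart, with 12.4% and 12.6% of TPM in processed pseudogenes, against 7.05% to 8.72% in the other 6 libraries. Whether replicates are separate mice or separate cultures is not in the labels, and the p-values therefore reflect spread among libraries that may be technical. In such bulk samples, fewer cells of a type and less RNA per cell cannot be told apart.

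The cluster lies in a pair of blocks on chromosome 11 (mm10 coordinates throughout). Ccl2 (82035571 to 82037453), Ccl7 (82045712 to 82047525), Ccl11 (82057823 to 82062955), Ccl12 (82101845 to 82103400) and Ccl8 (82115185 to 82116799) are all on the plus strand. After a gap of 1408.98 kb follow Ccl5 (83525778 to 83530518), Ccl9 (83572919 to 83578636), Ccl6 (83587882 to 83593087) and Ccl3 (83647844 to 83649355) on the minus strand and Ccl4 (83662584 to 83664683) on the plus strand. Ccl2 ends 8.258 kb before Ccl7 begins.

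The 10 transcripts differed widely in level. Ccl6 was the highest in both groups, at 189.9 ± 10.3 TPM in Baf60a KO and 239 ± 22.3 TPM in WT (SD, n = 4 each, as for all means here), and Ccl9 was next, at 140.3 ± 10.4 and 139 ± 15.9 TPM in Baf60a KO and WT. These ligands of Ccr1 together made up 62.0% ± 0.470 of the summed TPM of the 10 genes in Baf60a KO and 63.6% ± 2.45 in WT. Ccl3 ranked next in both groups, and the ranges of Ccl6, Ccl9 and Ccl3 did not overlap within either group. Below them in Baf60a KO came Ccl8, Ccl2, Ccl4 and Ccl7, each overlapping the next in range, and then Ccl5 and Ccl12, whose ranges overlapped each other and lay below that of Ccl7. In WT the order was Ccl8, Ccl7 and Ccl4, each overlapping the gene above it, then Ccl2, Ccl5 and Ccl12, with Ccl2 below the range of Ccl4 and overlapping Ccl5. Ccl2 was thus the fifth in Baf60a KO and the seventh in WT, and Ccl7 the seventh in Baf60a KO and the fifth in WT. The highest mean was 14.7 times the lowest among the 9 tested genes in Baf60a KO and 16.4 times in WT. The sum over the 10 genes was 502 to 562 TPM in Baf60a KO and 573 to 632 TPM in WT, with no overlap. Ccl6 had the largest difference in mean TPM, while the means of Ccl2, Ccl3 and Ccl9 were higher in Baf60a KO.

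**Figure D1:**
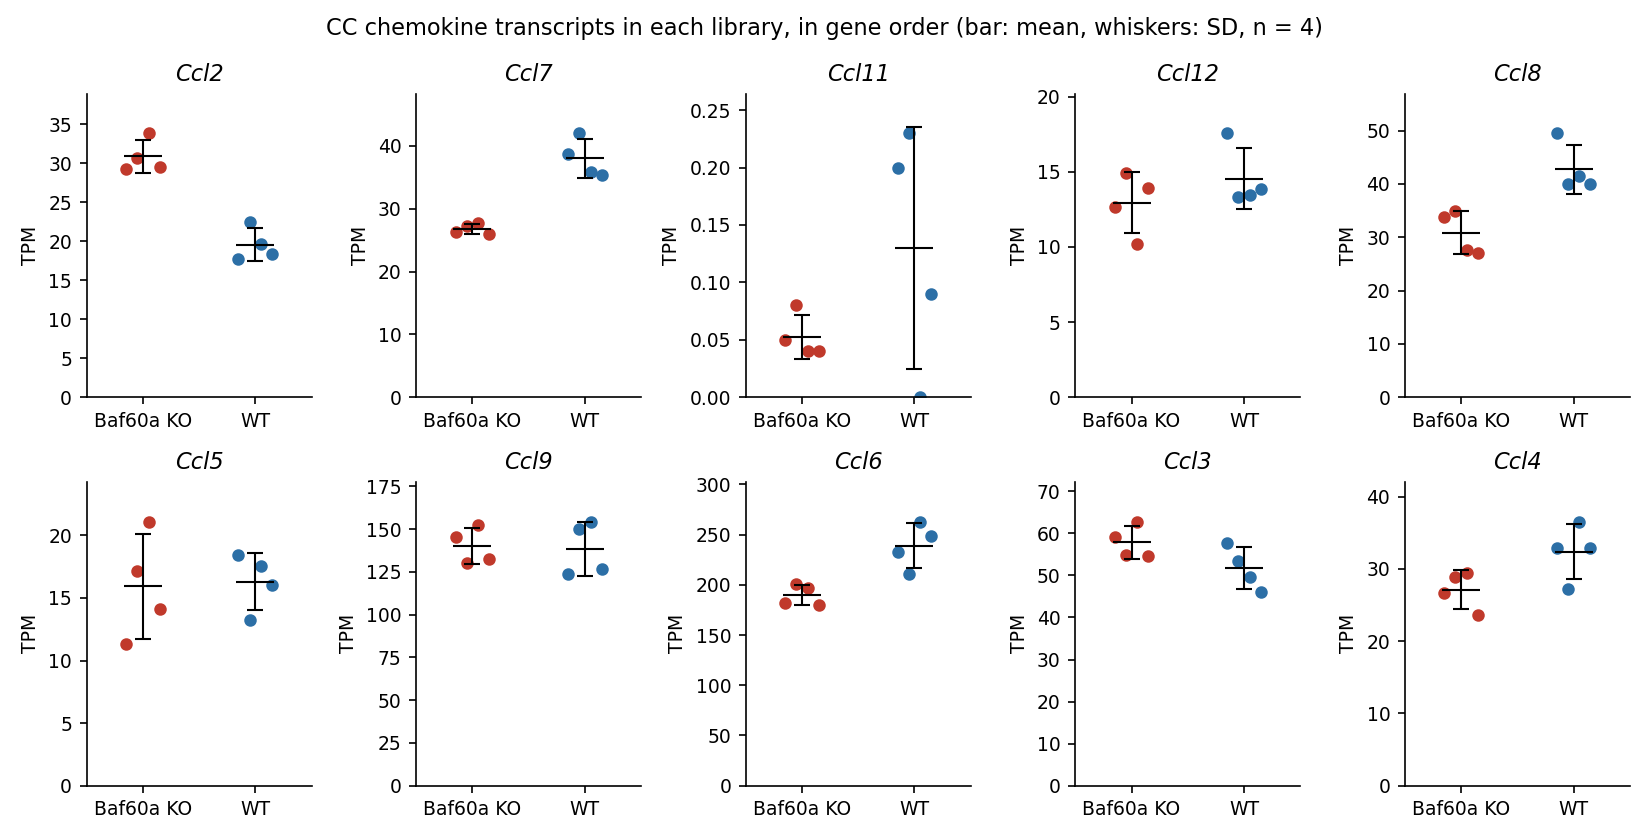
TPM of each of the 10 CC chemokine genes, in gene order, in Baf60a KO (red, left) and WT (blue, right); points are libraries, the bar is the mean and the whiskers the SD (n = 4). The y axes start at 0 and differ between panels. All 4 Baf60a KO libraries lie above all WT libraries for Ccl2 (29.33 TPM and over, against 22.47 TPM and under) and below them for Ccl7, Ccl8 and Ccl6.

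The monocyte attractant Ccl2 was at 29.33, 30.74, 33.87 and 29.57 TPM in Baf60a KO libraries 1 to 4, against 17.69, 22.47, 19.71 and 18.3 TPM in WT libraries 1 to 4. Every Baf60a KO library was above every WT library. The means were 30.9 ± 2.09 TPM in Baf60a KO and 19.5 ± 2.13 TPM in WT, a ratio of 1.58 and a log2 fold change of 0.64 (SE 0.080).

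Its neighbour Ccl7, which acts on the same receptor, was at 26.25, 27.18, 27.72 and 26.0 TPM in Baf60a KO libraries 1 to 4, against 38.75, 42.03, 35.87 and 35.4 TPM in WT libraries 1 to 4. Here every Baf60a KO library was below every WT library, and the Baf60a KO libraries lay close together. The means were 26.8 ± 0.803 TPM in Baf60a KO and 38.0 ± 3.06 TPM in WT (log2 fold change -0.49, SE 0.060).

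Within each library the ratio of Ccl2 to Ccl7 was 1.12, 1.13, 1.22 and 1.14 in Baf60a KO libraries 1 to 4, against 0.457, 0.535, 0.550 and 0.517 in WT libraries 1 to 4. Ccl2 exceeded Ccl7 in every Baf60a KO library and was below it in every WT library. A ratio within a library does not depend on how the library was scaled. The sum of both transcripts was 57.7 ± 2.84 TPM in Baf60a KO and 57.6 ± 4.77 TPM in WT, with overlapping ranges. As a share of the 10 genes, Ccl2 took 5.80% ± 0.202 in Baf60a KO and 3.30% ± 0.419 in WT, and Ccl7 took 5.03% ± 0.107 in Baf60a KO and 6.43% ± 0.709 in WT.

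**Figure D2:**
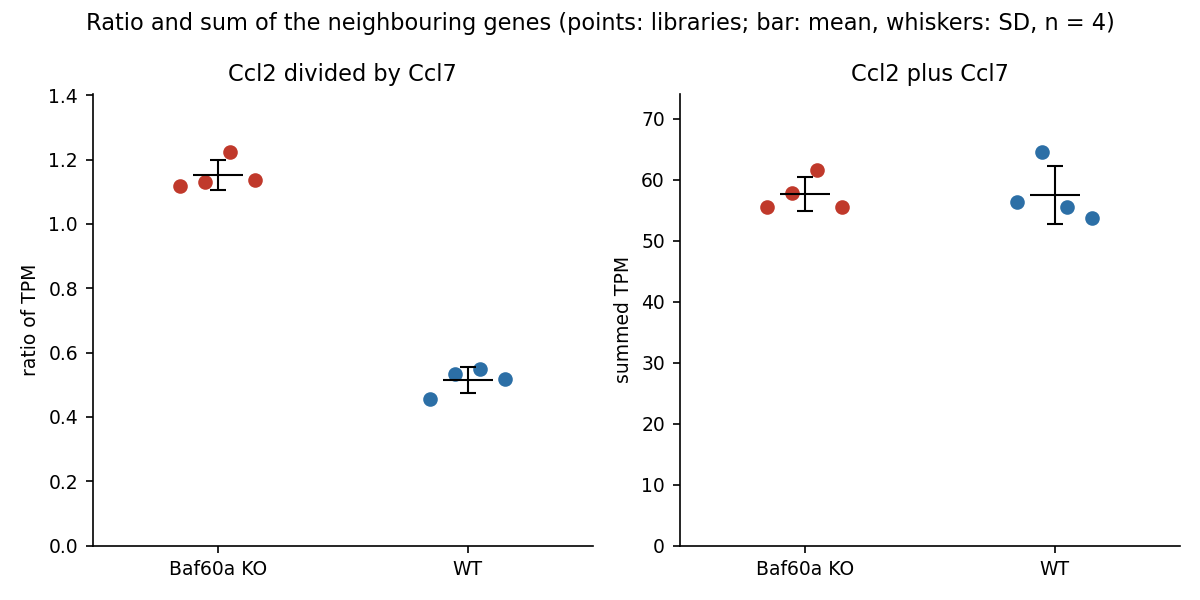
Ratio of Ccl2 to Ccl7 TPM (left panel) and their summed TPM (right panel) in each Baf60a KO (red) and WT (blue) library, with the mean and SD (n = 4). The ratio is 1.12 to 1.22 in Baf60a KO and 0.457 to 0.550 in WT, while the sums overlap, at 55.57 to 61.59 TPM in Baf60a KO and 53.7 to 64.5 TPM in WT.

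At adjusted p under 0.05 in limma on log2(TPM + 1), Ccl8 and Ccl6 fell. None of the other tested genes on which the choice did not rest was called. Of all tested genes, 5.61% were called in either direction, 4.4% higher and 1.21% lower. The groups did not overlap for Ccl8 and Ccl6, nor for Ccl2 and Ccl7. This was so for 15.8% of all tested genes, 11.9% with Baf60a KO above WT and 3.96% with Baf60a KO below. The list was chosen on Ccl2 and Ccl7 in this same contrast. Both are therefore left out of the calls here, and nothing is read from the number of members called or without overlap. The median log2 fold change, which does include Ccl2 and Ccl7, was -0.16 over the 9 genes and 0.03 over all tested genes.

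In the first block, Ccl8 was at 33.73, 35.01, 27.7 and 27.11 TPM in Baf60a KO libraries 1 to 4, against 49.54, 39.97, 41.52 and 39.97 TPM in WT libraries 1 to 4. The groups did not overlap, and WT library 1 was the highest of all. Ccl8 fell (30.9 ± 4.06 TPM in Baf60a KO and 42.8 ± 4.59 TPM in WT, log2 fold change -0.46, SE 0.103, limma adjusted p = 0.0394). The call ended without any 1 of the 8 libraries, with fold changes of -0.52 to -0.39 and adjusted p of 0.0582 to 0.110, and with no filter on low values (limma adjusted p = 0.0876).

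Ccl12, a monocyte attractant of the mouse, was at 12.68, 14.94, 10.21 and 13.94 TPM in Baf60a KO libraries 1 to 4, against 17.58, 13.3, 13.48 and 13.83 TPM in WT libraries 1 to 4. The groups overlapped and the difference did not pass (log2 fold change -0.16, SE 0.125, limma adjusted p = 0.504). The eosinophil attractant Ccl11 was at 0.04 to 0.08 TPM in Baf60a KO and at 0 to 0.23 TPM in WT, with WT library 3 listed at 0.

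In the second block, Ccl6 was at 181.71, 200.39, 197.1 and 180.37 TPM in Baf60a KO libraries 1 to 4, against 232.77, 210.9, 262.98 and 248.62 TPM in WT libraries 1 to 4. The groups did not overlap, and WT libraries 3 and 4, the libraries with more pseudogene TPM, were the highest. Ccl6 fell (log2 fold change -0.33, SE 0.071, limma adjusted p = 0.0368). Without WT libraries 3 and 4 its fold change was -0.22 (limma adjusted p = 0.0912) and that of Ccl8 was -0.52 (limma adjusted p = 0.0732). Leaving out any 1 library other than WT library 2 also ended the Ccl6 call, with adjusted p of 0.0521 to 0.110, and without WT library 2 it was 0.0261. The call also ended with no filter on low values (limma adjusted p = 0.0787) and with no variance trend (limma adjusted p = 0.0522).

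The adjacent Ccl9, alike in sequence and in receptor, was at 145.71, 130.33, 152.17 and 132.82 TPM in Baf60a KO libraries 1 to 4, against 123.52, 149.98, 154.42 and 126.49 TPM in WT libraries 1 to 4. These ranges overlapped almost wholly, and the difference did not pass (log2 fold change 0.02, SE 0.086, limma adjusted p = 0.930), with a sign that turned under 3 other scalings. Ccl5, a T cell and monocyte attractant, was at 11.34, 17.16, 21.1 and 14.08 TPM in Baf60a KO libraries 1 to 4, against 18.41, 13.27, 17.55 and 16.02 TPM in WT libraries 1 to 4. It was the most variable of the tested genes in Baf60a KO, where the SD was 26.3% of the mean (13.8% in WT), and did not pass (log2 fold change -0.06, SE 0.175, limma adjusted p = 0.902).

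The inflammatory ligands Ccl3 and Ccl4 are next to each other in opposite orientation, and their coding sequences were 69.3% identical. Ccl3 was at 59.21, 54.79, 62.8 and 54.54 TPM in Baf60a KO libraries 1 to 4, against 57.77, 53.36, 49.72 and 46.07 TPM in WT libraries 1 to 4. The log2 fold change of Ccl3 was 0.16 with SE 0.076 (limma adjusted p = 0.258). Ccl4 was at 26.68, 28.83, 29.5 and 23.59 TPM in Baf60a KO libraries 1 to 4, against 32.9, 27.22, 36.55 and 32.9 TPM in WT libraries 1 to 4. The log2 fold change of Ccl4 was -0.24 with SE 0.098 (limma adjusted p = 0.187), so these neighbours had fold changes of opposite sign, but the groups overlapped for both and neither passed. The plot of fold changes under each processing shows the range of each gene, and that of Ccl2 and Ccl7 is a description, since these values chose the list.

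**Figure D3:**
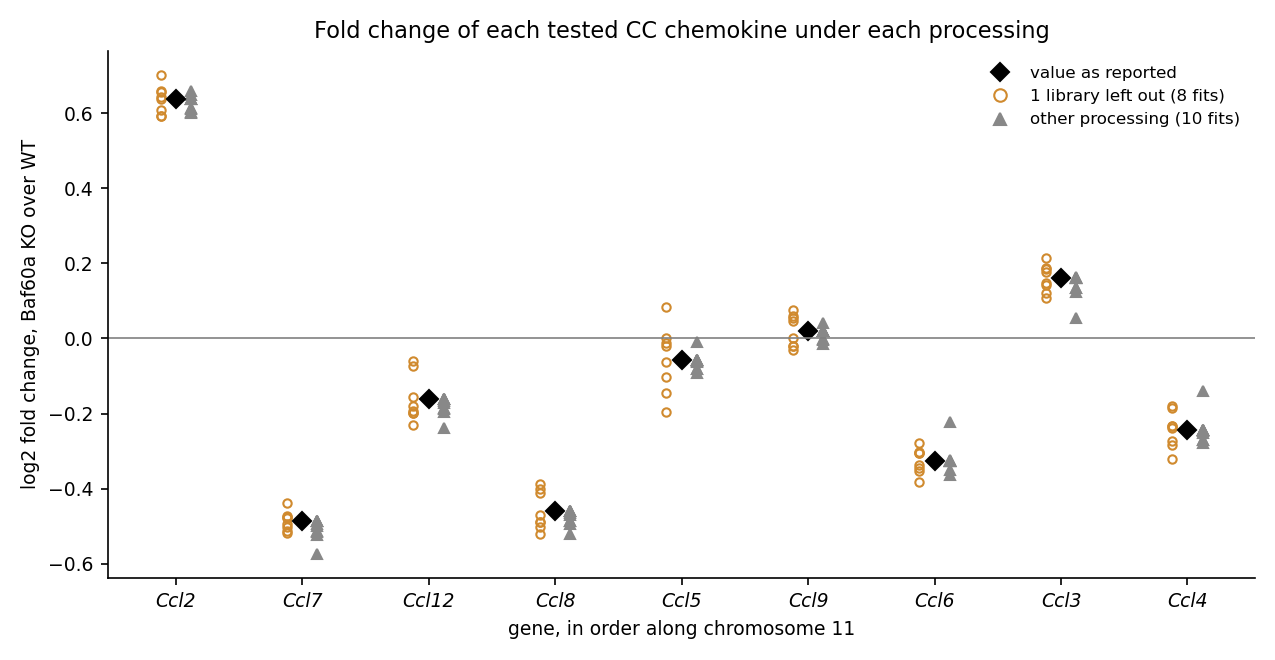
Log2 fold change (Baf60a KO over WT) of each tested CC chemokine as reported (black diamonds), with 1 library left out (open circles, 8 fits) and under other processing (grey triangles, 10 fits, of which 1 is without WT libraries 3 and 4). Ccl2 ranges between 0.59 and 0.70 and Ccl7 between -0.57, the value without WT libraries 3 and 4, and -0.44, while Ccl5 and Ccl9 fall on both sides of 0.

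**Figure D4:**
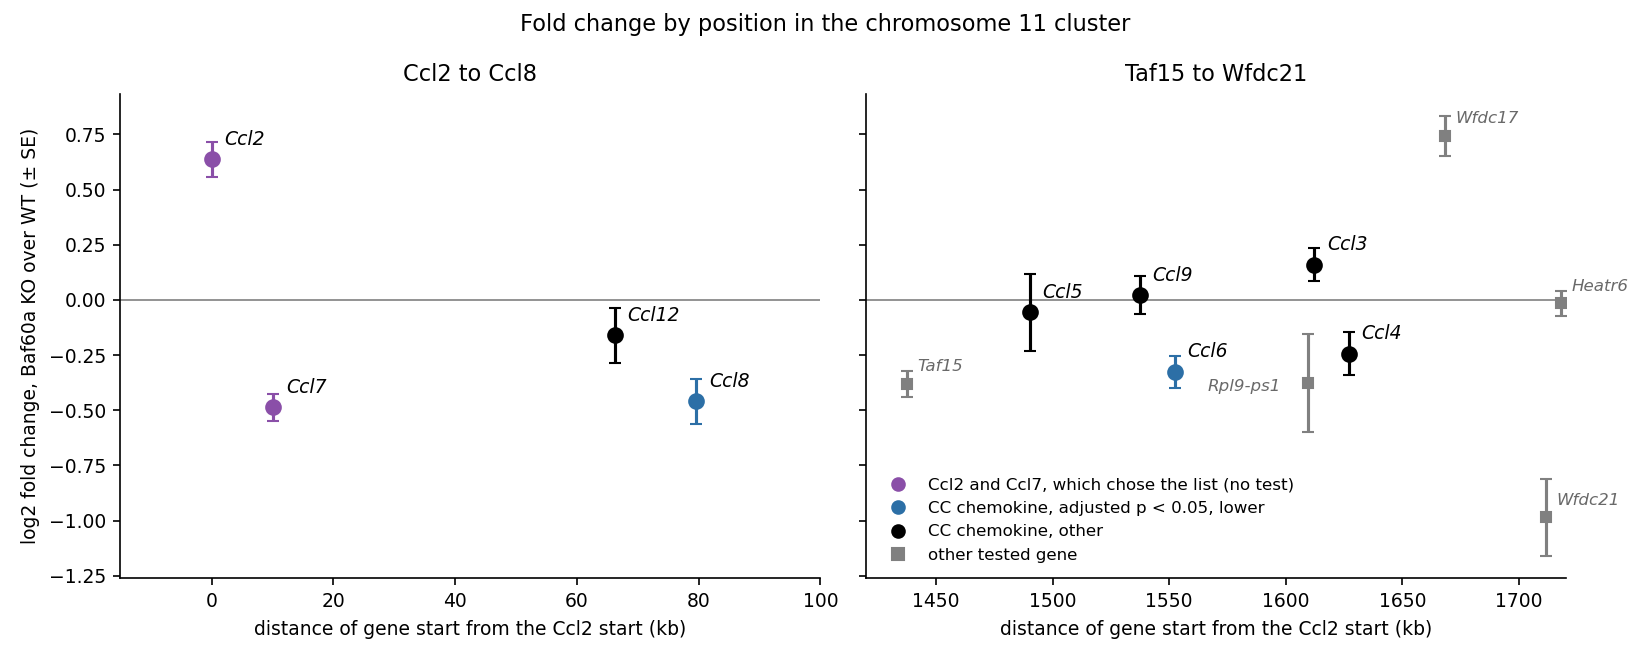
Log2 fold change (Baf60a KO over WT, error bars SE) against distance of the gene start from the Ccl2 start in kb, in the first block (left panel) and the second block (right panel); circles are the tested CC chemokines and grey squares other tested protein-coding genes. Ccl2 at 0.64 and Ccl7 at -0.49 lie 10.1 kb apart, and Ccl6 at -0.33 lies between Ccl9 at 0.02 and Ccl3 at 0.16.

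Other protein-coding genes up to 500 kb outside or between the blocks were taken as neighbours. Of 38 such genes, 23 were tested, of which 1 rose, 2 fell and 20 did not pass, and their median log2 fold change was -0.01. Over all tested genes, 4.4% were called higher in Baf60a KO and 1.21% lower. Wfdc17, which encodes a secreted whey acidic protein domain protein and lies past Ccl4, rose (583 ± 60.1 TPM in Baf60a KO and 348 ± 36.6 TPM in WT, log2 fold change 0.75, limma adjusted p = 0.00520). Its relative Wfdc21 fell (0.673 ± 0.362 TPM in Baf60a KO and 2.27 ± 0.381 TPM in WT, log2 fold change -0.99, limma adjusted p = 0.0210). It passed the filter on low values through the WT libraries alone, at 0.19 to 0.97 TPM in Baf60a KO and 1.79 to 2.69 TPM in WT, and was not tested with any WT library left out. Its limma call ended without Baf60a KO library 1 (adjusted p = 0.0594) and with a replicate block (adjusted p = 0.0766), and with a pseudocount of 0.1 its log2 fold change was -1.77. Taf15, an RNA-binding protein gene before Ccl5, fell (71.1 ± 1.01 TPM in Baf60a KO and 93.0 ± 8.07 TPM in WT, log2 fold change -0.38, limma adjusted p = 0.0135), and without Baf60a KO library 4 its adjusted p was 0.0502. Along the second block, called genes lay among genes that did not pass.

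The sequence before the start of Ccl8 and of Ccl6, the called genes on which the choice did not rest, is given as 250 bases upstream of the start (RefSeq, GRCm38.p6), 5′ to 3′ in the direction of the gene. Capitals mark matches to the motifs searched.
Ccl8: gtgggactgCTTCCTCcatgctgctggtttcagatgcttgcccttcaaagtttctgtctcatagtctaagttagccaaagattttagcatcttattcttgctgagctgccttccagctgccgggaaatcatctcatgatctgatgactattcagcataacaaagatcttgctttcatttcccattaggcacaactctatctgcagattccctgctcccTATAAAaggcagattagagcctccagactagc
Ccl6: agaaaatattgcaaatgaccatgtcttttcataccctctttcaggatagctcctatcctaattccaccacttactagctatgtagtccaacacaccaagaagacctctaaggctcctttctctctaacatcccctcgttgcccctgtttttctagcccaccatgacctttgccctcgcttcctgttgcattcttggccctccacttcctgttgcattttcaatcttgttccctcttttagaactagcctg
The stretches are chr11:82114935-82115184 on the plus strand and chr11:83593088-83593337 on the minus strand. Both strands were searched for the TATA box TATAAA, the AP-1 motif TGANTCA, the PU.1 core GAGGAAG and the NF-kappaB consensus. Ccl8 held TATAAA at -32 to -27, counted back from the start, and the PU.1 core on the other strand at -241 to -235, and these matches did not overlap. None of these letter strings was in the Ccl6 window. The stretches of Ccl12, Ccl9 and Ccl3, which were not called, were also searched. Ccl12 held TATAAA at -31 to -26. Ccl9 held TATAAA, the AP-1 motif and the NF-kappaB consensus, and Ccl3 held none of the strings. A match was thus not particular to a called gene. TATAAA was in 12.4% of the 32851 mouse promoter windows of the same length, the PU.1 core in 10.6%, the AP-1 motif in 6.75% and the NF-kappaB consensus in 3.9%. A match is a description of the letters and not of binding.

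Of 14 CC chemokine receptors counted here, 3 were tested, of which 1 rose and 2 did not pass, beside 5.61% of all tested genes called. Ccr1, the receptor of Ccl6, Ccl9, Ccl3 and Ccl5, was at 34.16, 34.21, 33.58 and 31.16 TPM in Baf60a KO libraries 1 to 4, against 21.69, 21.17, 20.63 and 20.61 TPM in WT libraries 1 to 4, and rose (log2 fold change 0.64, SE 0.046, limma adjusted p = 0.000566). The groups did not overlap, and the call held without any 1 library and without WT libraries 3 and 4, where the log2 fold change was 0.61. Ccr2, the receptor of Ccl2, Ccl7 and Ccl12, was low, at 1.51 ± 0.203 TPM in Baf60a KO and 1.59 ± 0.258 TPM in WT, and did not pass (log2 fold change -0.04, limma adjusted p = 0.880). Ccrl2, an atypical receptor, was at 14.8 ± 1.42 TPM in Baf60a KO and 16.4 ± 2.28 TPM in WT (log2 fold change -0.13, limma adjusted p = 0.525). Ccr8, the receptor of Ccl8 in the mouse, was listed at 0 in all 8 libraries.

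Of 13 CC chemokines encoded outside the 10 genes, 2 were tested and 0 were called, beside 5.61% of all tested genes. Ccl27a, a skin chemokine, was at 10.6 ± 1.54 TPM in Baf60a KO and 8.10 ± 1.36 TPM in WT (log2 fold change 0.36, limma adjusted p = 0.144, unadjusted p = 0.0218). Ccl25, a thymus and gut chemokine, was at 4.41 to 5.05 TPM in Baf60a KO and 3.05 to 5.96 TPM in WT (log2 fold change 0.11, limma adjusted p = 0.733). Ccl1, Ccl26, Ccl21b and Ccl27b were listed at 0 in all 8 libraries, and the 13 together summed to 15.15 to 17.75 TPM in Baf60a KO and 11.5 to 16.86 TPM in WT.

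Of 30 tested genes counted here for macrophage transcription factors and NF-kappaB inhibitors, 2 rose (Atf3 and Cebpa) and 28 did not pass. Of all tested genes, 5.61% were called in either direction. Among the 28, all Baf60a KO libraries lay below all WT libraries for Tnfaip3 and Nfkbib, and above them for Nfkbie, Jun and Maf. Groups did not overlap for 15.8% of all tested genes, 11.9% with Baf60a KO above WT and 3.96% with Baf60a KO below. The log2 fold change was -0.45 for Tnfaip3 (limma adjusted p = 0.0520) and -0.21 for Nfkbib (limma adjusted p = 0.0642). Atf3, a stress-induced repressor of inflammatory genes, was at 302 ± 5.31 TPM in Baf60a KO and 235 ± 21.7 TPM in WT (log2 fold change 0.37, limma adjusted p = 0.0210). Cebpa, a myeloid factor, was at 66.8 ± 2.96 TPM in Baf60a KO and 53.5 ± 5.69 TPM in WT (log2 fold change 0.32, limma adjusted p = 0.0452).

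Both calls were near the threshold. The Atf3 call ended without any 1 Baf60a KO library (limma adjusted p up to 0.0707), and the Cebpa call without any 1 library other than WT library 1 (up to 0.127). Of 7 tested genes for proteins that stabilise or degrade chemokine mRNA, 0 were called, beside 5.61% of all tested genes. The most abundant were Hnrnpd, an AU-rich element binding protein, at 120.1 ± 1.94 TPM in Baf60a KO and 131 ± 11.7 TPM in WT (log2 fold change -0.13, limma adjusted p = 0.270, unadjusted p = 0.0725), and Zfp36l2, an mRNA decay factor, at 87.7 ± 4.85 TPM in Baf60a KO and 80.5 ± 1.502 TPM in WT (log2 fold change 0.12, limma adjusted p = 0.160, unadjusted p = 0.0268).

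The genes whose pattern over the 8 libraries was most like that of Ccl2 or Ccl7 were found among 11829 protein-coding genes, by the root mean square difference of log2(TPM + 1) profiles centred on their means. Closest to Ccl2 were Col8a1, a collagen gene (0.0526), the tubulin gene Tubb2b (0.0572), Ccdc80, an extracellular matrix protein gene (0.0641), Ankrd1 (0.0666) and the chemokine receptor gene Cxcr3 (0.0697), all of which rose. Closest to Ccl7 were the MHC class I gene H2-Q4 (0.0700), Fgfbp3 (0.0793), Arrdc4 (0.0796), Tm4sf19 (0.0820) and the ribosomal protein gene Rps23 (0.0838), of which all but Tm4sf19 fell. Ccl2 and Ccl7 were chosen for their difference between these groups, so genes with a like profile carry a like fold change. Nothing is read from the direction of these calls. Cxcr3 passed the filter on low values through the Baf60a KO libraries alone, at means of 1.25 TPM in Baf60a KO and 0.438 TPM in WT, and its call ended with a replicate block (limma adjusted p = 0.0586). The Fgfbp3 call ended without any 1 library other than WT libraries 1 and 3 (limma adjusted p up to 0.0798). Among the other 8 tested CC chemokines, Ccl3 was nearest to Ccl2 (0.271) and Ccl8 nearest to Ccl7 (0.157), while the difference between Ccl2 and Ccl7 was 0.567.

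Some markers of other cells moved with the groups as well. The counts below stand beside 5.61% of all tested genes called, 4.4% higher in Baf60a KO and 1.21% lower. Of 8 stromal markers 7 were tested, of which 4 rose (Col1a1, Col3a1, Pdgfrb and Thy1), 0 fell and 3 did not pass. Those 3 were Col1a2 (log2 fold change 0.20, limma adjusted p = 0.053), Pdgfra (0.06, 0.713) and Dcn (-0.43, 0.277). Lum was not tested, at means of 0.22 TPM in Baf60a KO and 0.35 TPM in WT. The summed level of the 8 was 3948 to 4241 TPM in Baf60a KO and 3234 to 3628 TPM in WT, with none listed at 0 throughout. Col1a1 and Col1a2 were the most abundant of the 8. Of 4 endothelial markers, all tested, Pecam1 and Emcn rose, and the summed level was 32.3 to 41.4 TPM in Baf60a KO and 22.0 to 28.6 TPM in WT. Of the 9 macrophage markers, Cd68 and Itgam rose and Lyz2 fell, and the sum was 4259 to 4607 TPM in Baf60a KO and 5756 to 6688 TPM in WT. The lower sum in Baf60a KO came from Lyz2, at 1927 ± 110.1 TPM in Baf60a KO and 3993 ± 248 TPM in WT. The other 8 summed to 2450.0 to 2558 TPM in Baf60a KO and 1957 to 2378 TPM in WT, and the median log2 fold change of the 9 was 0.22. The part of these markers in the values of Ccl2, Ccl7 and the other chemokines was not tested.

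In the remaining lists, the markers that passed the filter on low values were not called: 4 of 5 monocyte, 4 of 8 neutrophil, 1 of 4 B cell, 1 of 7 mast cell, basophil and eosinophil, and 1 of 6 dendritic cell markers. None of the 8 T and NK cell markers was tested. The summed level of the monocyte markers was 922 to 1115 TPM in Baf60a KO and 807 to 1016 TPM in WT, and that of the neutrophil markers 135 to 219.6 TPM in Baf60a KO and 172 to 258 TPM in WT. Markers of T and NK cells summed to 0.27 to 0.54 TPM in Baf60a KO and 0.67 to 1.25 TPM in WT, without overlap and with Gzma listed at 0. The sums were also low for B cells (1.97 to 2.6 TPM in Baf60a KO and 1.57 to 3.02 TPM in WT), mast cells, basophils and eosinophils (2.09 to 2.91 TPM in Baf60a KO and 2.07 to 3.38 TPM in WT) and dendritic cells (1.57 to 2.39 TPM in Baf60a KO and 1.9 to 2.26 TPM in WT).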

How the data were processed

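The authors deposited a table of TPM with 2 decimals, 1 column per library. TPM was read from the values, since each library summed to 1000000 within rounding. Salmon 1.2.0, bcl2fastq and mm10 were used, per the submitters' processing notes, and libraries were made with the NEBNext Ultra kit, per the labels' protocols; the sources used here do not give the annotation or mapping options. TPM is relative within a library, keeps no depth and gives a value of 0 no detection limit.

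Groups came from sample titles. All 8 sample columns were used and no pair was identical. Of 55421 identifiers, 55154 matched a GENCODE M21 symbol. The 13933 genes above 1 TPM in 4 or more libraries were compared as log2(TPM + 1), a scale that understates changes of low genes, using limma 3.58.1 (R 4.3.3), a variance trend and no covariate, and p-values were Benjamini-Hochberg adjusted over all of them. "Rose" and "fell" are used of genes called at adjusted p under 0.05. The steps were tested on simulated data.

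The members and gene lists were chosen with earlier results of these data known. Named were all members, tested CC chemokines and receptors, up to 6 called genes (or the 2 most abundant) per other list, the 5 genes most like Ccl2 and Ccl7, Smarcd1, and called, highest or absent markers. The uncalled stromal markers and Tnfaip3, Nfkbib, Nfkbie, Jun and Maf were named after their values were seen. Some genes of the receptor and transcription factor lists are not reported here and are left out of the counts of those lists. Coding sequences were aligned with Biopython 1.88 in place of the planned protein comparison. Upstream sequences are from RefSeq; those of Ccl2, Ccl7, Ccl11, Ccl5 and Ccl4 were not used here. Alternatives covered the pseudocount, filter, variance trend, scaling, replicate block and omitted libraries.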

Additional observations from a re-analysis of the deposited data

Results flagged for a closer look

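Of 84 groups of 4 libraries examined, 3 had a library far from the other 3 by Dixon's 95% criterion for the gap over the range, where chance gives about 1 in 20. Ccl8 in WT library 1 was at 49.54 TPM, against 39.97 to 41.52 TPM in the other WT libraries (gap over range 0.838). Without it, Ccl8 had a log2 fold change of -0.39 (limma adjusted p = 0.0582). Ccl12, the gene before Ccl8, was at 17.58 TPM in the same library, against 13.3 to 13.83 TPM in the other WT libraries (0.876). Hnrnpd was at 123.0 TPM in Baf60a KO library 1, against 119.04 to 119.25 TPM in the other Baf60a KO libraries (0.947).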

How the results depend on the processing

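The count of called genes was 782, and 364 with no filter on low values, 1338 after rescaling over protein-coding genes, 209 with a replicate block, 372 without WT libraries 3 and 4, and 156 to 679 with 1 library left out. Cluster genes called lower numbered 3, and 2 with no variance trend, 1 with no filter, with the replicate block and without WT libraries 3 and 4, and 1 to 2 with 1 library left out. Ccl7, on which the choice rested in part, was among them in each of these fits and is counted only as a description. Called transcription factors numbered 2, and 1 with no filter, 1 with no variance trend, 6 under median-of-ratios scaling, 6 after rescaling over protein-coding genes, 4 under quantile normalization, 0 with the replicate block and 0 to 3 with 1 library left out. Without WT libraries 3 and 4, 1 mRNA decay gene was called (Hnrnpd, limma adjusted p = 0.0390) and Ccl7 was at -0.57. Signs turned for Ccl9 (-0.016 under median-of-ratios scaling, -0.0046 after rescaling over protein-coding genes, -0.00022 under quantile normalization, and -0.032 to 0.075 with 1 library left out), Ccl5 (-0.20 to 0.084 with 1 left out), Ccl25 (-0.11 without WT libraries 3 and 4, -0.018 to 0.24 with 1 left out) and Ccr2 (-0.086 to 0.027 with 1 left out). The causes were not tested.

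Replicate numbers are not said to pair libraries, and residuals of libraries with the same number correlated at -0.113, 0.012, 0.008 and -0.016. These values were not set beside those of libraries with different numbers, so whether libraries are paired stays unknown. With the replicate block, Ccl8 (limma adjusted p = 0.0594) and Ccl6 (0.0907) were not called. No call of Ccr1, Wfdc17 or Smarcd1 ended in any fit. TPM keeps no depth, so the counting error of low genes such as Ccl11 and Ccr2 is unknown.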

Other observations

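The following were chosen after their values were seen. Ccl4 and Ccl6 were each other's second closest protein-coding gene by profile over the 8 libraries (root mean square difference 0.0736). The fourth closest to Ccl8 was Smarcd1 (0.117). The difference between groups is part of each profile. The log2 fold change was -0.24 for Ccl4 and -0.33 for Ccl6, and -0.46 for Ccl8 and -0.47 for Smarcd1. Nothing is therefore read from these likenesses. The third closest to Ccl5 was the interferon regulator Irf7 (0.141), and Baf60a KO library 3 was the highest of the Baf60a KO libraries for Ccl5 (21.1 TPM), Irf7 (158 TPM) and Stat2 (34.8 TPM), none of which was called. The same library was the lowest of the Baf60a KO libraries for Irf8 (56.65 TPM) and Stat3 (77.78 TPM). Among WT libraries, Irf7 and Stat2 were highest in library 3, but Ccl5 was highest in library 1 (18.41 TPM).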
